A study of Mus musculus with 6 samples.

Results

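The centromere-proximal bins of the mouse autosomes were the 362 bins of 500 kb that lie between 3 and 13 Mb on chr 1 to chr 19 and held data in all 3 Hi-C matrices, out of 4727 autosomal bins with data. The choice used position and a diagonal value above 0.5, and no other measurement. The window holds 20 bins per autosome, or 380 in all, and 18 of these had a diagonal of 0 in all 3 matrices and were left out. They were the first 9 bins of chr 14, 5 bins of chr 7, 2 bins of chr 5 and the first bins of chr 11 and chr 16. In 17 of the 18, between 42.0 and 66.5% of the bases were masked as repeats, and the first bin of chr 11 had 33.9% masked and 20.0% of its bases unassembled. Chr 14 was therefore represented by 11 bins, chr 7 by 15, chr 5 by 18, chr 11 and chr 16 by 19 each, and every other autosome by 20.

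C2C12 is an established line of mouse skeletal muscle progenitors, and it models muscle differentiation in culture rather than in tissue. The myoblasts were proliferating cells, taken at day 0 once they had grown for 72 h. The myotubes were taken 3 days into differentiation. The AraC-treated myotubes were taken at day 7 and had been given 10 µg/ml of the cytidine analogue AraC since day 3. There were 2 biological replicates per condition, and the authors pooled them into 1 matrix, so each value below is a single measurement per condition with no error between replicates. Day and AraC differ together between myotubes and AraC-treated myotubes and cannot be told apart. AraC was given to remove remaining myoblasts, and the authors state that a changed mix of cells could also contribute to differences. The mix of cells was not tested here. No test between conditions was possible. The spread given is the standard deviation (SD) over the 19 autosomes or over bins of a single matrix, and it is not an error of the difference between conditions.

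Mouse autosomes carry their centromere at 1 end. The assembled sequence starts a few Mb from it, after a gap that stands for satellite DNA, and the bins studied here are the first of the assembled sequence. The pericentromeric satellites of several chromosomes gather in the nucleus into chromocentres, dense heterochromatic bodies that are known to fuse into fewer and larger ones as myoblasts differentiate. After mitosis the centromeres of many cells also lie toward one side of the nucleus and the telomeres toward the other, an arrangement named after Rabl. Active and inactive chromatin further separate into the A and B compartments. Each of these arrangements can place bins of different chromosomes in similar surroundings.

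The start of the assembled sequence is shown for chr 9, since its first bin held by far the most satellite sequence of all proximal bins with data, as counted below. Its first 1500 bases, when shifted by 234 bases, were equal to themselves at 82.6% of positions, the period of the major (gamma) satellite. The sequences below are from RefSeq GRCm38.p6, plus strand, 5′ to 3′. The first is chr9:3000001-3000234 and the second the following repeat, chr9:3000235-3000468, in which capitals mark the 149 of 234 bases that equal the base 234 positions earlier.
chr9 first repeat: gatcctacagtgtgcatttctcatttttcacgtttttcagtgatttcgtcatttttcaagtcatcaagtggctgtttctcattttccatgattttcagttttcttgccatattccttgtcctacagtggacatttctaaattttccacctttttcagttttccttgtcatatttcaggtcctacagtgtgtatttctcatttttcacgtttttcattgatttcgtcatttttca
chr9 second repeat: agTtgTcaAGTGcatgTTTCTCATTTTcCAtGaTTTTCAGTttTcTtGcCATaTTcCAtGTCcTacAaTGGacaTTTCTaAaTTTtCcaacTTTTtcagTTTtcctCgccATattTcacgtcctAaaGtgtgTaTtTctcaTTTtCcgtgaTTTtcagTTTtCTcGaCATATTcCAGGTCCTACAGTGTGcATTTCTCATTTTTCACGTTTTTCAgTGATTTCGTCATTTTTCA
All 16-base words of the first 600 bases of chr 9, 780 words over both strands, were counted in every bin. The first bin of chr 9 held 19951 matches, the first bin of chr 12 held 166 and that of chr 4 held 152, and no other proximal bin with data reached 100. The measurements thus describe the sequence beside the satellite far more than the satellite. The reference is of the strain C57BL/6J and C2C12 came from C3H mice, so the words in the cells themselves are not known.

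The matrices hold correlation coefficients. Each value is the Pearson correlation between the normalized interaction profiles of 2 bins, so it is high where 2 bins meet the same partners, whether or not they touch each other. Only pairs on different chromosomes (trans pairs) were used. There were 62026 trans pairs of proximal bins and 8988559 trans pairs of other autosomal bins. The SD of all trans values was 0.0446, 0.0890 and 0.0732 in myoblasts, myotubes and AraC-treated myotubes, so values are given as deposited and, where stated, divided by this SD (scaled).

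Proximal bins of different autosomes were more alike than other bins of different autosomes in all 3 matrices. In myoblasts, the mean correlation was 0.0331 between proximal bins and 0.00502 between other bins. The excess of 0.0280 ± 0.00289 (SD over 19 autosomes) was above 0 on 19 of 19 autosomes. In myotubes, the means were 0.0341 and 0.00659, and the excess of 0.0275 ± 0.0137 was above 0 on 17 of 19 autosomes. In AraC-treated myotubes, the means were 0.0206 and 0.00253, and the excess of 0.0181 ± 0.0130 was again above 0 on 17 autosomes. The excess was larger than its SD over autosomes in each matrix.

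A coefficient above 0 was found in 88.4, 74.5 and 70.1% of the proximal pairs of the 3 matrices, in the order myoblasts, myotubes and AraC-treated myotubes, which values without a named condition follow throughout. Among other pairs the shares were 56.5%, 57.6% and 55.5%. Pairs of 1 proximal and 1 other bin had means of 0.00556, 0.0114 and 0.00548 in the 3 matrices. These were below the means of proximal pairs in each matrix, and above those of other pairs.

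**Figure D1:**
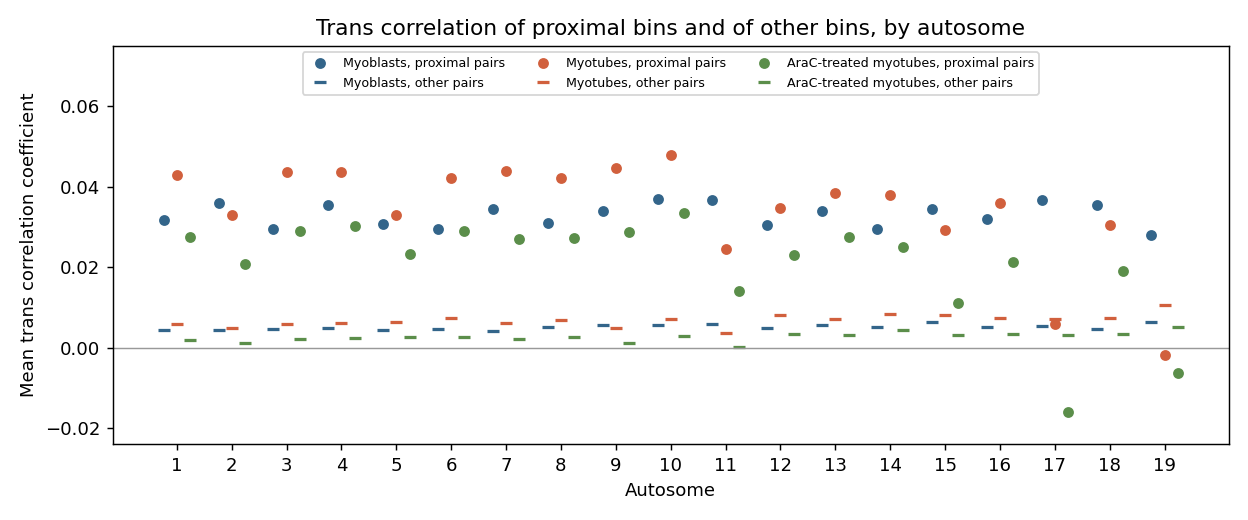
Mean trans correlation coefficient (vertical axis) of each autosome (horizontal axis), with points for its proximal bins against proximal bins of the other autosomes and dashes for its other bins against other bins, in 3 conditions. In myoblasts all 19 points lie between 0.0279 and 0.0369, while in myotubes and AraC-treated myotubes chr 17 and chr 19 fall below their dashes.

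Myoblasts showed a narrow band of autosomes, as the plot by autosome shows. The mean of an autosome's proximal bins ran from 0.0279 on chr 19 over a median of 0.0339 to 0.0369 on chr 10. The range of myotubes was from −0.00189 on chr 19 over 0.0380 to 0.0478 on chr 10, and that of AraC-treated myotubes from −0.0159 on chr 17 over 0.0251 to 0.0334 on chr 10. Chr 10 was the highest and chr 17 or chr 19 the lowest in the later conditions, and the SD over autosomes was 0.00289, 0.0130 and 0.0126 in the 3 conditions.

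The comparison of myoblasts with myotubes depended on the scale and on the window. As deposited, the excess was lower in myotubes than in myoblasts on 6 of 19 autosomes, and divided by the SD of all trans values it was lower on 19 of 19. The scaled excess was 0.63, 0.31 and 0.25. AraC-treated myotubes were below myoblasts on both scales, on 17 autosomes as deposited and on 19 scaled, and below myotubes on 18 and 19 autosomes. In a window of bins that start from 3 to 7.5 Mb, the excess as deposited was 0.0287, 0.0166 and 0.0115, so that myotubes were below myoblasts without scaling.

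Each bin was also described by its proximal preference, its mean correlation with proximal bins of the other autosomes minus that with other bins of the other autosomes. In myoblasts, 357 of the 362 proximal bins had a preference above 0 (98.6%, exact 95% binomial interval 96.8 to 99.6%), against 57.3% of all autosomal bins. In myotubes there were 322 (89.0%, interval 85.3 to 92.0%) against 70.0% of all bins, and in AraC-treated myotubes 313 (86.5%, interval 82.5 to 89.8%) against 69.1%. Neighbouring bins are not independent, so these intervals cover counting error only. The proximal share was above that of all bins in each condition, and the distance between both was widest in myoblasts.

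From myoblasts to myotubes, the scaled preference was lower in 362 of 362 proximal bins, against 48.8% of all bins, whereas the preference as deposited was lower in 168 (46.4%), against 32.5%. From myoblasts to AraC-treated myotubes it was lower in 362 bins on the scaled values, against 50.6%, and in 328 (90.6%) as deposited, against 43.5%. From myotubes to AraC-treated myotubes the counts were 301 (83.1%) against 60.0% and 330 (91.2%) against 67.6%. Between myoblasts and myotubes the deposited and the scaled values therefore pointed in different directions for 194 of the 362 proximal bins.

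The proximal bins were then set against the other end of the chromosomes. In myoblasts, the last 20 bins of each autosome (distal bins) had a mean trans correlation with each other of 0.0245 ± 0.0116 (SD over autosomes). Proximal and distal bins of different autosomes had a mean of −0.0119 ± 0.00333, which was below 0 on 19 of 19 autosomes. Like ends of chromosomes were thus positively correlated in myoblasts, and unlike ends negatively.

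In myotubes, distal bins had a mean of 0.00869 ± 0.00691 with each other, and proximal with distal bins a mean of 0.00163 ± 0.00503, above 0 on 9 of 19 autosomes. In AraC-treated myotubes the 2 means were 0.00511 ± 0.0109 and −0.00191 ± 0.00834, and the latter was above 0 on 4 autosomes. In both differentiated conditions the mean of unlike ends was smaller in size than its SD over autosomes. Bins between the ends had means of 0.00494, 0.00683 and 0.00275 with each other.

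**Figure D2:**
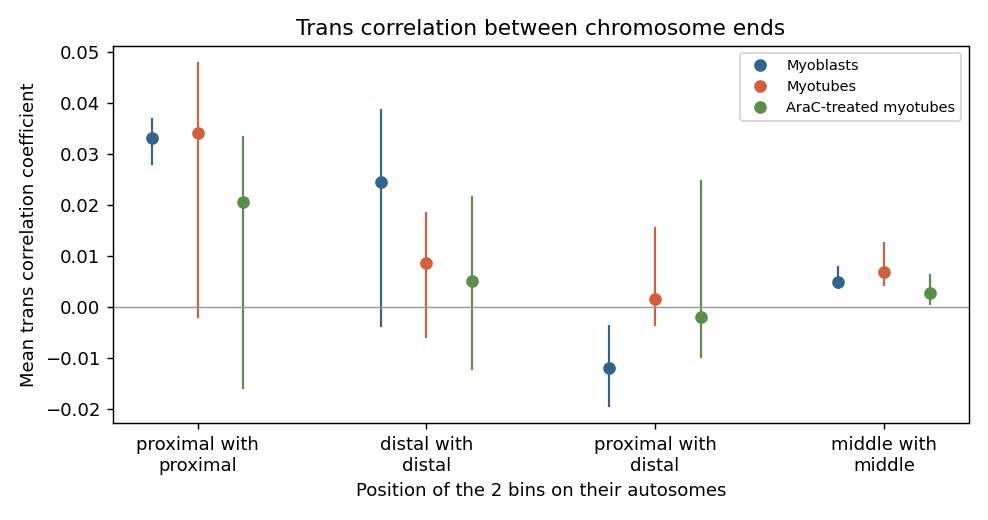
Mean trans correlation coefficient (vertical axis) of pairs of bins by their position on the autosome (horizontal axis) in 3 conditions. Points are means over pairs and lines run from the lowest to the highest of the 19 autosomes, so that proximal with distal pairs of myoblasts lie wholly below 0, between −0.0194 and −0.00380, and those of the other conditions straddle it.

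Along the chromosome, correlation with proximal bins of other autosomes declined steadily in myoblasts. It was 0.0331 in the window itself, 0.0271 from 13 to 23 Mb, 0.0199 from 23 to 33 Mb and 0.0166 from 43 to 53 Mb, and it reached 0.00105 from 83 to 93 Mb. The first 10 Mb were thus the top of a gradient that ran over most of the chromosome.

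In myotubes, the window and the following 10 Mb could not be told apart, at 0.0341 ± 0.0130 and 0.0341 ± 0.0141. In AraC-treated myotubes they were at 0.0206 ± 0.0126 and 0.0219 ± 0.0118. Both matrices then dropped to 0.0157 and 0.00728 from 23 to 33 Mb, where 40.1 and 36.4% of bins were in compartment A against 27.1 and 27.6% in the window, and were higher again at 0.0234 and 0.0148 from 43 to 53 Mb, where 28.8 and 25.9% were in A.

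**Figure D3:**
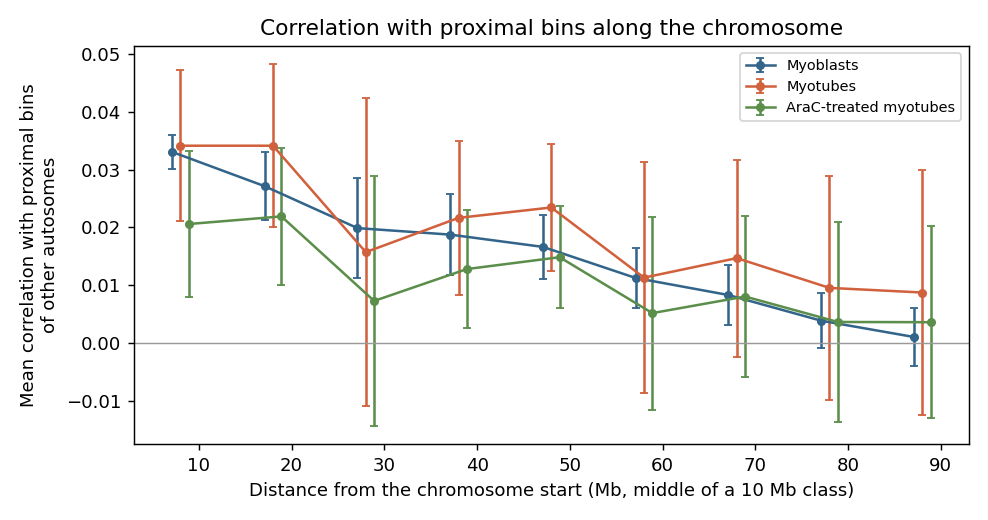
Mean correlation with proximal bins of other autosomes (vertical axis) in classes of 10 Mb from the chromosome start (horizontal axis), with bars of 1 SD over autosomes. Myoblasts decline from 0.0331 to 0.00105 in every step, while myotubes and AraC-treated myotubes rise and dip with wider bars.

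Within the window, the first assembled bin stood highest. The 16 bins that start at 3 Mb had means of 0.0447 ± 0.00937 (SD over bins), 0.0479 ± 0.0155 and 0.0308 ± 0.0145. The 18 bins at 3.5 Mb followed in myoblasts with 0.0385 ± 0.00844. The lowest means lay at 5.5 Mb in myoblasts (0.0285 ± 0.0123) and at 5 Mb in myotubes (0.0166 ± 0.0426) and AraC-treated myotubes (0.00819 ± 0.0313). From 4 to 6 Mb, between 44.4 and 55.6% of the bins were in compartment A in myoblasts, against 31.3% at 3 Mb.

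At the outer edge of the window, the last 19 bins inside it, 1 per autosome, had means of 0.0329, 0.0408 and 0.0245. The 19 bins that start at 13 Mb, the first outside, had 0.0307, 0.0371 and 0.0218. The bins just outside were slightly lower on average in each matrix.

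Compartments were read from the first principal component (PC1) of each chromosome's own correlation block, with its sign set so that gene-dense bins are above 0 (A). Of the 362 proximal bins, 121 (33.4%), 98 (27.1%) and 100 (27.6%) were in A, against 38.2, 36.5 and 35.5% of all autosomal bins. Of the other autosomal bins, 38.6, 37.3 and 36.1% were in A. The proximal bins were in A less often than the others as a whole, but on single autosomes their share was above that of the other bins on 7, 7 and 6 of 19, so this was no common property of the autosomes.

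The value of a proximal bin followed its compartment less closely in myoblasts than later. Over the 362 bins, the mean correlation with proximal bins of other autosomes had a Pearson r with PC1 of −0.51 (Spearman's rho −0.30), −0.93 (rho −0.88) and −0.92 (rho −0.87). These are descriptions over neighbouring bins that share chromosomes, libraries and matrices. Most proximal bins were in B and PC1 comes from the same matrix, so a negative r is in part built in. PC1 also held less of the variance in myoblasts on every autosome, from 26.3, 60.7 and 55.6% on chr 3 to 69.2, 90.3 and 86.7% on chr 11. The part of this in the r values was not tested. In myoblasts the values of the bins ran from −0.0184 over a median of 0.0332 to 0.0621, in myotubes from −0.0915 over 0.0430 to 0.0786, and those of AraC-treated myotubes from −0.0709 over 0.0277 to 0.0561. The lower end was thus further below 0 in the differentiated conditions, and the plot against PC1 shows that these low bins were those of compartment A.

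**Figure D4:**
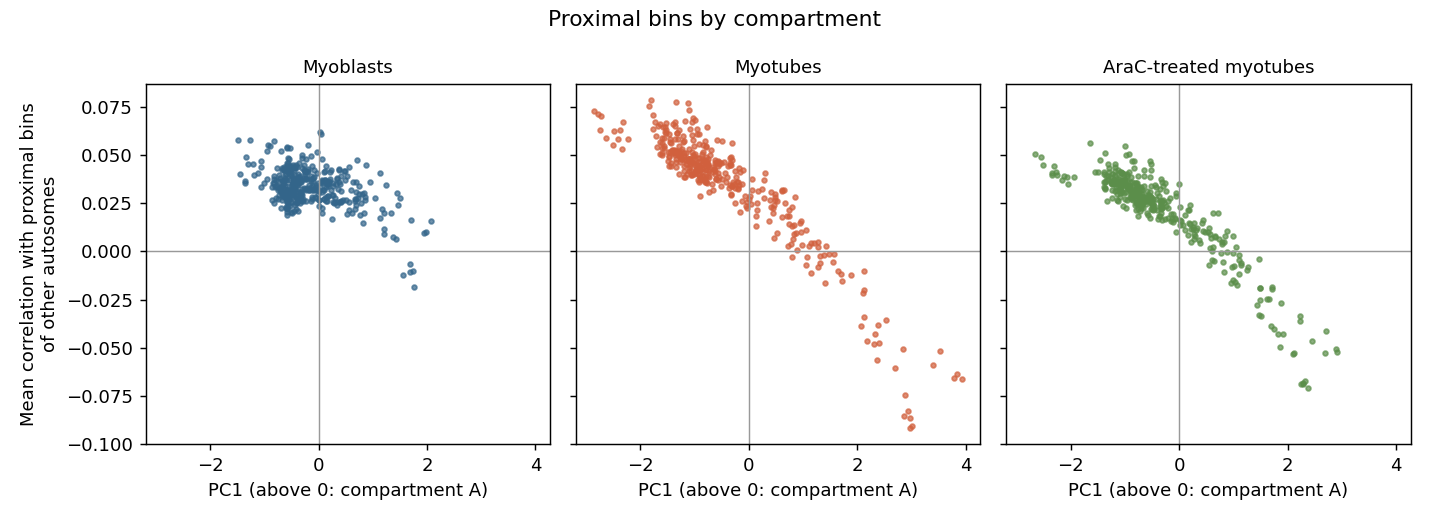
Each point is 1 of 362 proximal bins, with PC1 on the horizontal axis (above 0 is compartment A) and its mean correlation with proximal bins of other autosomes on the vertical axis. In myoblasts most bins lie above 0 on both sides of PC1 (r −0.51), while in myotubes and AraC-treated myotubes the points follow a falling line (r −0.93 and −0.92).

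Pairs were then split by compartment. In myoblasts, a proximal A bin and a proximal B bin of different autosomes had a mean correlation of 0.0153 ± 0.0159 (SD over autosomes), while A and B bins elsewhere had −0.0221 ± 0.00681. Proximal B bins had 0.0455 ± 0.00473 with each other against 0.0209 ± 0.00146 elsewhere. Proximal A bins had 0.0553 ± 0.0163 against 0.0512 ± 0.0108, a difference within the spread. In myoblasts the proximal excess was thus carried by pairs that included a B bin.

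In myotubes, proximal A with B pairs had a mean of −0.0322 ± 0.0474 against −0.0608 ± 0.0143 elsewhere, and in AraC-treated myotubes −0.0324 ± 0.0357 against −0.0543 ± 0.0113. Proximal B pairs stood at 0.0787 against 0.0569 and at 0.0570 against 0.0405. Proximal A pairs were below A pairs elsewhere, at 0.0757 ± 0.0392 against 0.0910 ± 0.0179 and at 0.0577 ± 0.0320 against 0.0849 ± 0.0154. The sign of the A with B pairs of proximal bins was positive in myoblasts and negative in both later conditions, but each of the 3 means was smaller than its SD over autosomes.

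When each pair was set against other pairs of the same PC1 classes (5 classes of equal size per chromosome), the excess was 0.0274 ± 0.00334, 0.0157 ± 0.00487 and 0.0110 ± 0.00548. It was above 0 on 19, 19 and 18 autosomes, chr 17 of AraC-treated myotubes being the exception at −0.00257. On these adjusted values, myotubes and AraC-treated myotubes were below myoblasts on 19 of 19 autosomes each, both as deposited and scaled. These classes are coarse, so some of a difference in compartment can remain in these values. The compartment pattern itself was stronger in the later matrices, with an SD of PC1 over autosomal bins of 0.859, 1.61 and 1.36, and its part in the difference between conditions beyond this adjustment was not tested.

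As a whole, a larger share of proximal bins than of other bins had a PC1 of different sign in myoblasts and in the differentiated conditions. From myoblasts to myotubes 45 of 362 changed sign (12.4%, interval 9.21 to 16.3%), against 7.28% of all autosomal bins. Of these 45, 34 were in A in myoblasts and 11 in B. Among all autosomal bins 344 changed, of which 214 were in A in myoblasts and 130 in B. From myoblasts to AraC-treated myotubes 61 proximal bins changed (16.9%, interval 13.1 to 21.1%), against 10.2%. Of these 61, 41 had been in A and 20 in B. Among all autosomal bins 483 changed, of which 307 had been in A and 176 in B. Changes from A to B thus outnumbered the reverse among all autosomal bins as well. Between myotubes and AraC-treated myotubes 18 changed (4.97%), against 5.10%. Over all 3 conditions, 80 proximal bins stayed in A, 220 stayed in B and 62 changed (17.1%, against 10.8% of the other bins).

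Nearly all of these sign changes lay close to 0. With bins of small absolute PC1 left out (up to the 20th percentile of a chromosome in either condition), 1 of 243 proximal bins changed from myoblasts to myotubes and 2 of 227 from myoblasts to AraC-treated myotubes (0.412 and 0.881%), against 0.348 and 1.19% of all such bins. From myotubes to AraC-treated myotubes it was 0 of 262 (which allows up to 1.15%, against 0.0843%). At this stricter limit the proximal bins were not apart from the other bins.

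The 2 bins that passed this limit were the following. The bin chr2:9500001-10000000, with the gene of the transcription factor Gata3, went from A in myoblasts (PC1 0.38) to B later (−0.75 and −0.78). Its correlation with proximal bins of other autosomes was 0.0425, 0.0478 and 0.0342. The bin chr15:3000001-3500000, with Selenop, which encodes the selenium transporter selenoprotein P, and Ccdc152, went from B (−0.44) to A (0.40 and 0.79). Its correlation was 0.0434, 0.0268 and 0.00512, a decline at each step. The Gata3 bin passed the limit for both comparisons with myoblasts and the Selenop bin for that with AraC-treated myotubes.

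The proximal bins of chr 17 had the largest difference between conditions of all autosomes in their mean correlation. Of its 20 proximal bins, 9, 13 and 19 were in A, and a component computed from other chromosomes alone gave 8, 13 and 19. The mean correlation of these bins with proximal bins elsewhere was 0.0367, 0.00591 and −0.0159. The 3 largest scaled declines from myotubes to AraC-treated myotubes lay here. The bin with Pde10a, a phosphodiesterase gene, at chr17:8500001-9000000 had 0.0481, 0.0349 and −0.00500 in the 3 conditions. The bin with Arid1b, a subunit gene of the SWI/SNF chromatin remodelling complex, at chr17:4500001-5000000 had 0.0541, 0.0554 and 0.0143. The bin with Gm17728 at chr17:9000001-9500000 had 0.0401, 0.0224 and −0.0108. The bins of Qk and Zdhhc14 were among the 3 largest scaled declines from myoblasts to AraC-treated myotubes. The bin with Qk, an RNA-binding protein gene, at chr17:10000001-10500000 had 0.0367, −0.0165 and −0.0389. The bin with Zdhhc14, Tmem242 and Ldhal6b at chr17:5000001-5500000 had 0.0554, 0.0239 and −0.00745. These bins were on the side of the other proximal bins in myoblasts and at or below 0 in AraC-treated myotubes, with the Arid1b bin as the exception.

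Some proximal bins of chr 19 and chr 11 are gene-dense. The lowest proximal bins over all 3 conditions were chr19:5000001-5500000 with 29 protein-coding genes, among them the cofilin gene Cfl1, at −0.0184, −0.0915 and −0.0688, chr19:4500001-5000000 with Actn3 at −0.0101, −0.0903 and −0.0709, and chr19:5500001-6000000 with the acetyltransferase gene Kat5 at −0.0124, −0.0854 and −0.0689. All 3 were in A throughout. They lay below 0 already in myoblasts, where 5 of the 362 proximal bins did, against 33.4% of all autosomal bins. In myotubes 41 proximal bins were below 0, against 27.6%, and with AraC 52, against 30.3%.

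The largest scaled declines from myoblasts to myotubes were also in A bins of these chromosomes. The bin chr19:3500001-4000000, with the Wnt co-receptor gene Lrp5 and the histone methyltransferase gene Kmt5b, had 0.0200, −0.0746 and −0.0530. The bin chr11:6000001-6500000, with Ogdh of the citric acid cycle and Camk2b, had 0.0363, −0.0384 and −0.0277. The bin chr11:3500001-4000000, with the smooth muscle protein gene Smtn, had 0.0280, −0.0519 and −0.0413. All 3 were positive in myoblasts and negative in both later conditions. The first bin of chr 19, chr19:3000001-3500000, with Cpt1a, the gate of mitochondrial fatty acid uptake, and the galanin gene Gal, had the highest value of any proximal bin in myoblasts, 0.0621, and 0.0233 and 0.00820 later. Its PC1 was 0.03, 0.80 and 0.65.

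The highest proximal bins over all 3 conditions were all in B. They were chr15:12500001-13000000 with Drosha, whose product starts microRNA processing (0.0520, 0.0786 and 0.0561), chr11:7000001-7500000 with Adcy1 and the insulin-like growth factor binding protein genes Igfbp1 and Igfbp3 (0.0576, 0.0727 and 0.0488), and chr19:8000001-8500000 with the solute carriers Slc22a28, Slc22a29 and Slc22a30 (0.0575, 0.0775 and 0.0434). The gene-free first bin of chr 13 had 0.0554, 0.0711 and 0.0510. The bin chr19:11000001-11500000, with a cluster of Ms4a membrane protein genes, had 0.0523, 0.0768 and 0.0504. Chr 19 thus held bins of both extremes, in different compartments.

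Few proximal bins had a higher scaled correlation with the others after differentiation, 7 of 362 in myotubes against 49.2% of all autosomal bins, and 0 of 362 in AraC-treated myotubes against 42.5%. From myotubes to AraC-treated myotubes 39 were higher, against 24.0%. As deposited, the median of the proximal bins was 0.0332, 0.0430 and 0.0277 and their mean 0.0331, 0.0341 and 0.0206. The direction from myoblasts to myotubes thus depended on the scale. The 3 largest differences from myoblasts to myotubes were at chr16:7500001-8000000 (0.0204 and 0.0451 as deposited, 0.46 and 0.51 scaled), at chr16:7000001-7500000 (0.0221 and 0.0479, 0.50 and 0.54) and at the bin of chr 12 that starts at 12000001, with Fam49a (0.0267 and 0.0562, 0.60 and 0.63). In AraC-treated myotubes the bins with the smallest scaled declines from myoblasts were chr16:7500001-8000000, chr12:11000001-11500000, with the SMC complex gene Smc6, and the bin of chr 3 that starts at 12000001, and their values as deposited were higher than in myoblasts (0.0204 and 0.0300, 0.0279 and 0.0422, 0.0206 and 0.0299). From myotubes to AraC-treated myotubes the largest increases were in the bins of Zeb1 on chr 18 (−0.0430 and −0.0190), of Rhob and Sdc1 at chr12:8500001-9000000 (−0.0217 and −0.00687) and of Dip2c and Larp4b at chr13:9000001-9500000 (−0.00296 and 0.00630). These last 3 were A bins in which a negative or near-zero value came closer to 0 or passed it.

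The order of the proximal bins was kept between the differentiated conditions and less so from myoblasts. The Pearson r of their values was 0.97 between myotubes and AraC-treated myotubes (Spearman's rho 0.93). Myoblasts had an r of 0.65 (rho 0.53) with myotubes and of 0.57 (rho 0.46) with AraC-treated myotubes. These describe 362 bins each, which share their chromosomes.

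By pairs of autosomes, the proximal mean was above the mean of other bins of the same pair in 170 (99.4%), 146 (85.4%) and 138 (80.7%) of 171 pairs. The number of pairs with a proximal mean below 0 was 0, 22 and 29. Chr 9 with chr 10 was the highest pair over the 3 conditions on the scaled values, with 0.0424, 0.0737 and 0.0543, followed by chr 4 with chr 10 (0.0419, 0.0685 and 0.0568) and chr 7 with chr 10 (0.0435, 0.0713 and 0.0482). The lowest were chr 14 with chr 19 (0.0108, −0.0264 and −0.0247), chr 6 with chr 19 (0.0160, −0.0253 and −0.0228) and chr 3 with chr 19 (0.0150, −0.0201 and −0.0236).

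In the map of pairs, as deposited, all pairs were above 0 in myoblasts, while chr 17 and chr 19 were below 0 with many others later. The width of the range depended on the scale. Scaled, the pair means ran from 0.24 to 1.31 in myoblasts, from −0.30 to 0.83 in myotubes and from −0.57 to 0.78 in AraC-treated myotubes. In myoblasts the highest pair was chr 2 with chr 4 at 0.0585, with 0.0483 and 0.0320 later. Chr 17 and chr 19, the pair of autosomes that were negative with many others, were positive with each other at 0.0450, 0.0525 and 0.0557. Chr 15 with chr 17 stood at 0.0346, 0.0402 and 0.0470. As deposited, both pairs were higher in each later condition than in myoblasts, while scaled both were lower, at 1.01, 0.59 and 0.76 for chr 17 with chr 19 and 0.77, 0.45 and 0.64 for chr 15 with chr 17.

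**Figure D5:**
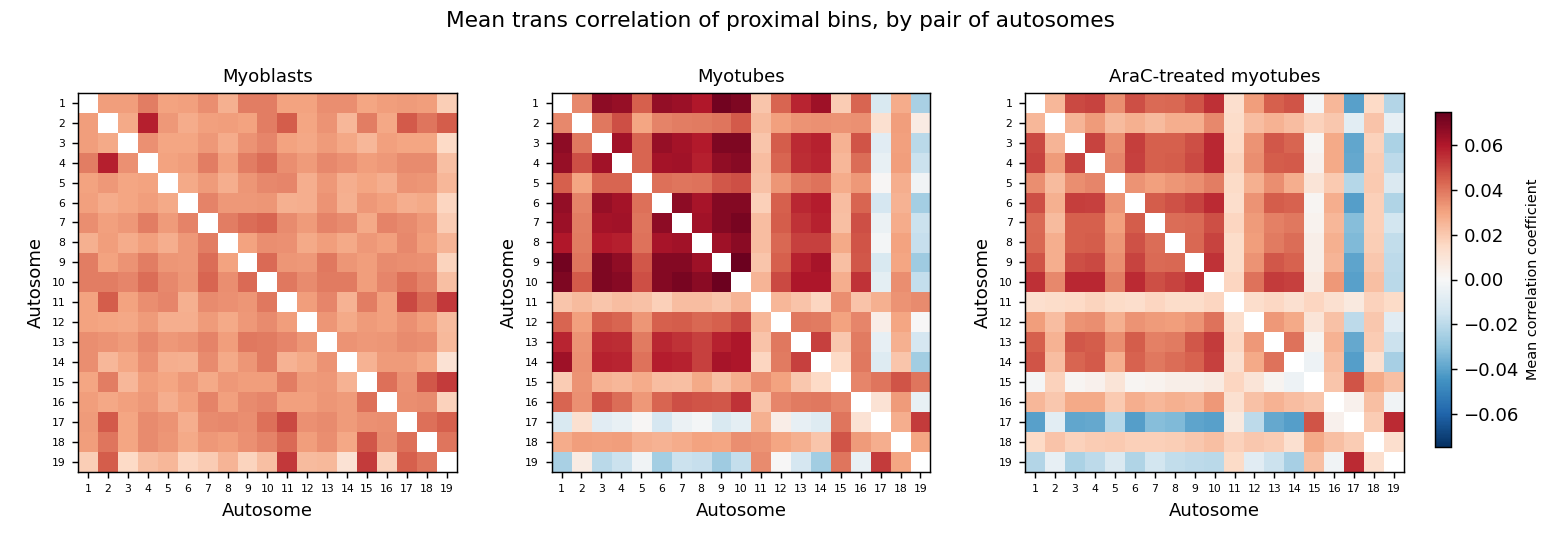
Mean trans correlation coefficient of proximal bins (colour, from blue below 0 to red above 0) for each pair of the 19 autosomes in 3 conditions. All pairs are above 0 in myoblasts (lowest 0.0108), whereas rows of chr 17 and chr 19 turn blue against most autosomes in AraC-treated myotubes but not against each other (0.0557).

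The single bin pairs with the highest coefficients joined gene-dense A bins. The bin chr11:4000001-4500000, with the cytokine genes Lif and Osm, had 0.368, 0.546 and 0.381 with the Actn3 bin of chr 19 and 0.371, 0.523 and 0.392 with chr19:6000001-6500000. The next bin of chr 11, chr11:4500001-5000000, with the tumour suppressor gene Nf2, had 0.344, 0.543 and 0.398 with the Actn3 bin. These pairs averaged 6.41 to 6.53 SD of all trans values over the conditions, and the 95th percentile of proximal pairs was 0.0785, 0.125 and 0.0967.

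The nucleolus is another body at which chromosomes meet, and in laboratory mice the ribosomal RNA genes lie near the centromeres of chr 12, 15, 16, 18 and 19. Proximal bins of these chromosomes had a mean of 0.0351 ± 0.0104 with each other in myoblasts (SD over 10 pairs of autosomes), against 0.0342 ± 0.00544 for the 91 pairs without any of them. The means were 0.0276 ± 0.0169 and 0.0427 ± 0.0244 in myotubes and 0.0148 ± 0.0120 and 0.0277 ± 0.0276 in AraC-treated myotubes. The rRNA chromosomes were within the spread of the others in myoblasts and lower on average in the later conditions, where the spreads overlap.

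The proximal bins held 1354 protein-coding genes by their start site, 6.65% of those of the autosomal bins on 7.66% of the bins, and 95 bins held none. A bin had 3.74 ± 5.34 (SD) such genes, against 4.35 ± 5.60 elsewhere. GC content was 41.5 ± 2.96% against 42.0 ± 3.73%. Repeat-masked sequence was 37.3 ± 9.73% against 32.8 ± 8.48%, and higher on 16 of 19 autosomes. Sites of HindIII, the enzyme that cut the chromatin (AAGCTT, the same on both strands), numbered 167 ± 19.2 per bin against 160 ± 20.3, and were more on 17 autosomes. The part of these features in the correlation of proximal bins was not tested, beyond the settings by GC content and gene number that are given with the other settings.

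The preference of proximal bins was present at every gene density in myoblasts. It was above 0 in all 95 bins without a protein-coding gene, all 173 bins with 1 to 4, all 56 with 5 to 9 and 33 of 38 with 10 or more, where 69.9, 57.8, 40.5 and 32.6% of other bins of the same class were above 0. In myotubes the densest class had 22 of 38 above 0 (57.9%, other bins 35.1%), and its mean preference was 0.000572 ± 0.0428. In AraC-treated myotubes it also had 22 of 38, with a mean of −0.00217 ± 0.0335. The gene-free bins kept a mean preference of 0.0276 in myotubes and 0.0194 in AraC-treated myotubes, against 0.0169 and 0.0131 in gene-free bins elsewhere.

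Of 82 genes of muscle structure, metabolism and regulation, 80 were found on the autosomes and 5 of them (6.25%) lay in proximal bins. This was close to the 6.65% of all protein-coding genes of the autosomal bins. Actn2 (α-actinin-2 of the Z-disc), in the bin of chr 13 that starts at 12000001 beside the ryanodine receptor gene Ryr2, was in B throughout, with PC1 of −0.65, −1.12 and −0.94 and correlation with proximal bins of 0.0422, 0.0471 and 0.0331. Actn3 (α-actinin-3 of fast fibres) and Pygm (muscle glycogen phosphorylase) lay in the A bins of chr 19 that stood below 0 throughout. The Pygm bin, chr19:6000001-6500000, had −0.00627, −0.0829 and −0.0681. Tnni3 (cardiac troponin I) and Tnnt1 (slow skeletal troponin T) shared chr7:4500001-5000000, an A bin that remained positive with 0.0416, 0.0373 and 0.0243. No muscle gene's bin changed compartment.

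Clustered receptor families were represented unevenly, where 6.65% of all protein-coding genes of the autosomal bins lay in proximal bins. Their genes lie in few clusters, so the genes of a family are not independent of each other in position. Proximal bins held 45 of 258 vomeronasal receptor genes (17.4%) in 11 bins of chr 4, 7 and 18, and their mean correlation with proximal bins was 0.0334, 0.0463 and 0.0299. They held 42 of 1127 olfactory receptor genes (3.73%) in 6 bins of chr 7, 16 and 19, with 0.0467, 0.0597 and 0.0382. They held 33 of 378 Zfp zinc finger genes (8.73%) in 14 bins, with 0.0335, 0.0316 and 0.0198. No defensin, Speer or histone gene of the lists lay in them. The receptor bins, which were in B with few exceptions (0, 1 and 1 of 6 olfactory and 1, 0 and 0 of 11 vomeronasal bins in A), were at or above the mean of all proximal bins in each condition.

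The 3 proximal bins with at least 100 satellite words had the following values. The first bin of chr 9 had a correlation with proximal bins of 0.0431, 0.0629 and 0.0414, that of chr 4 had 0.0433, 0.0615 and 0.0401, and that of chr 12 had 0.0410, 0.0319 and 0.0199. The 16 first bins with data averaged 0.0447, 0.0479 and 0.0308, with a spread over bins of 0.00937 to 0.0155. The first bin of chr 9 was close to that of chr 4 in each condition, while that of chr 12 was lower than both in the later conditions. A part of satellite sequence in these values was not tested.

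Chr X also starts with its centromere but was not part of the set. Its 15 proximal bins with data had a mean correlation of 0.0105 ± 0.00374 (SD over autosomes), 0.0116 ± 0.00301 and 0.00713 ± 0.00365 with the proximal bins of the autosomes. Their correlation with other autosomal bins was 0.00871, 0.00816 and 0.00464, so that the preference was 0.00183, 0.00349 and 0.00249 and was above 0 in 9, 9 and 8 of 15 bins. The autosomal proximal bins were above this mean in myoblasts on 19 of 19 autosomes, their lowest being 0.0279. The 20 distal bins of chr X had a mean of −0.0125 ± 0.00617 in myoblasts, with 0 of 20 above 0 in preference, and 0.0124 ± 0.0180 and 0.0101 ± 0.0183 in the later conditions, with 13 and 19 above 0. The 257 bins between the ends of chr X had a preference of −0.00361, 0.00960 and 0.00746, above 0 in 87, 235 and 239 bins. In both later conditions the preference of the proximal bins of chr X was thus below that of the bins between its ends.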

How the data were processed

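Chromatin of 6 Hi-C libraries, 2 replicates of each condition, had been cut with HindIII. According to the labels and methods, the authors mapped the reads with bowtie in HiCUP, pooled the replicates and normalized the interactions in HOMER. Why some bins hold no value was not tested. They deposited 1 matrix per condition, in which each score is a Pearson correlation coefficient of the profiles of a pair of 500 kb bins on mm10. The deposited scores were used unchanged. A coefficient does not show the reads behind it, so depth per bin is unknown, and its effect on the differences between conditions was not tested. For whole libraries, the paper reports the most pooled read pairs in myotubes and the fewest in AraC-treated myotubes. The share of read pairs between chromosomes was lowest in the myoblast libraries. The myoblast replicates also correlated less with each other than those of the other conditions. The part of these differences in the myoblast values was not tested. Columns of unmapped samples numbered 0, and 183 bins of chr Y and the mitochondrial genome were not used.

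Trans means, PC1 (principal component analysis of each autosome's block, columns centred and not scaled, signed by protein-coding start sites of GENCODE vM21) and 5 classes of PC1 were computed in Python 3.11.15 with NumPy 2.4.6, SciPy 1.17.1 and Matplotlib 3.10.9, after the steps were tested on simulated data. Replicates cannot be separated, so no p-value or test is given. Members and lists were chosen with earlier results of these data known. Bins were named by rank: the 5 highest and 3 lowest, the 3 largest scaled differences each way per pair of conditions, and sign changes of PC1 above the 20th percentile in size. The 3 highest and lowest pairs of autosomes and the 3 highest bin pairs were also named. The printed sequences, the satellite words, other bins of chr 17 and the pairs chr 2 with 4, 15 with 17 and 17 with 19 were chosen after their values were seen. Alternatives were other windows, means, weights, classes and comparison bins.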

Additional observations from a re-analysis of the deposited data

How the results depend on the processing

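No paired analysis was possible because the replicates of each condition were pooled before deposit. Of 114 alternative values, 87 were counted as the same, 22 as moved and 5 as reversed. An excess was the same if it moved by less than its SD over autosomes, and a share if it stayed within its binomial interval. The difference of a named bin was the same if it only kept its sign, whatever its size, so the 87 do not all measure stability. The 22 include the excess divided by the SD of all trans values, which is on another scale and not a change of result. Leaving out each autosome in turn gave an excess of 0.0276 to 0.0287, 0.0259 to 0.0322 and 0.0165 to 0.0226 (in the order of the report), and 0.0265 to 0.0280, 0.0146 to 0.0168 and 0.0103 to 0.0123 after adjustment for PC1. The share of bins with a preference above 0 was then 98.2 to 99.4%, 88.0 to 90.1% and 85.7 to 88.3%. Among pairs with both bins in A, the excess was 0.00409 in myoblasts and reversed to −0.0153 in myotubes and, with AraC, −0.0272, and with both in B it was 0.0246 in myoblasts. Against distal bins it was 0.00855 in myoblasts. With a window to 22 Mb the myoblast excess was 0.0223, or 0.0215 adjusted. Divided by the SD of all trans values, the excess was 0.628, 0.309 and 0.247, and 0.614, 0.176 and 0.150 adjusted. Adjusted by GC content the excess was 0.0282, 0.0250 and 0.0162, and by gene number 0.0282, 0.0261 and 0.0172. Myotubes were thus closer to myoblasts than after adjustment for PC1, where the values were 0.0157 and 0.0274. With a window to 7.5 Mb the excess was 0.0287, 0.0166 and 0.0115, 40.4, 34.3 and 35.4% of the bins were in A and 91.0% had a preference above 0 in AraC-treated myotubes. With a minimum absolute PC1, 0.412, 0.881 and 0% of bins changed sign, and a component from other chromosomes gave 12.4% from myoblasts to AraC-treated myotubes. Divided by the SD, 3 differences from myoblasts to AraC-treated myotubes reversed, to −0.0464 (chr16-7500000), −0.0497 (chr12-11000000) and −0.0542 (chr3-12000000). Leaving out bins with 100 or more satellite words, chosen after seeing the data, moved no excess or share beyond these limits. The cause was not tested for any of these. Pooled replicates, unknown depth per bin, the mix of cells and the joint change of day and AraC limit the comparisons between conditions.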

Other observations

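Bins outside the window that held at least 100 words of the chr 9 satellite repeat gave mixed values, and no explanation is offered. The bin chr14:19000001-19500000 held 1570 words and had a mean correlation with proximal bins of other autosomes of 0.0328, 0.0497 and 0.0328 in the order myoblasts, myotubes and AraC-treated myotubes, close to the proximal bins themselves. The bin chr9:35000001-35500000 held 214 and had 0.0204, 0.00204 and 0.00655. The bin chr2:98500001-99000000 held 755 and had −0.00176, 0.0141 and 0.00605. On chr X, the bin chrX:75500001-76000000 held 383 and had 5.66e-05, 0.0105 and 0.00952. These 4 bins were chosen after the matches were counted.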
